A study of Mus musculus with 48 samples.

Results

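A set of 10 genes that mark macrophages, the resident phagocytes of tissue, were followed in mouse skeletal muscle across genotype, pancreatic tumor and circadian time. The genes, chosen by name, were Cd68, Adgre1, Mrc1, Cd163, Lyve1, Csf1r, Cx3cr1, F13a1, Fcer1g, and Lgmn, which are 10 of the 56748 genes in the deposited expression table. RNA from tibialis anterior muscle was sequenced in 48 libraries, 2 mice in each of 24 groups, formed by 2 genotypes, 2 conditions, and 6 circadian times (CT18, CT22, CT26, CT30, CT34, and CT38, in hours). KPC mice received murine KPC pancreatic cancer cells into the pancreas, an orthotopic tumor model, and control mice had a sham operation with saline. FoxP1SkmKO mice are homozygous for floxed Foxp1 and carry Cre under the muscle fiber promoter ACTA1, so macrophages in these mice are not the cells in which the gene was deleted. WT mice are described as floxed mice without Cre in the series' design text and as C57BL/6J in the sample descriptions. All mice were males, aged 39 to 55 weeks by the sample labels although another passage of the study's text gives the RNA-seq mice a younger age. They had lived on a 12 h light and 12 h dark cycle and were then kept in constant darkness, with the first collection after 18 h and later ones every 4 h. CT18 and CT22 fall in the active phase of these nocturnal animals, and CT30 and CT34 in the rest phase.

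Macrophages of muscle sit between the fibers, clear dead material, and scavenge hemoglobin and matrix fragments, and after injury they are joined by monocytes from blood. Their survival depends on CSF1R, the receptor for the growth factors CSF1 and IL-34, and resident populations in many tissues carry MRC1, CD163, and LYVE1. In whole muscle, a change in the RNA of such genes can come from the number of cells or from the RNA in each cell, and in these bulk libraries fewer cells and less RNA per cell cannot be told apart.

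Reads counted on genes ranged from 14480867 to 20787784 per library, and the macrophage genes took few of them, with a median of 4 reads per library for Cx3cr1 and 445 for Lgmn. Foxp1 itself did not separate the genotypes, since its level was 0.430 to 0.971 FPKM (fragments scaled for exon length and library size) in WT and 0.419 to 0.653 FPKM in FoxP1SkmKO libraries, and the log2 difference, FoxP1SkmKO minus WT, was -0.11 ± 0.07 (SE) in control and -0.20 ± 0.07 in KPC mice (adjusted p = 0.459 and 0.246, edgeR). These are counts over the whole gene in whole muscle, so they do not check the deletion or the genotype labels. A pair of libraries stood apart in the summed level of macrophage and other white blood cell genes. In FoxP1SkmKO control CT18 replicate 2, 18 pan-myeloid genes summed to 166 FPKM against 50.5 FPKM in its partner, and 11 T, B, and NK cell markers to 2.66 against 0.737 FPKM. The pan-myeloid sum weighs the MHC class II invariant chain Cd74 and the lysozyme gene Lyz2 most. Their medians over all libraries were 23.8 and 13.8 FPKM, the highest of that list. In FoxP1SkmKO KPC CT30 replicate 2, 9 neutrophil markers summed to 21.8 FPKM against 0.437 FPKM in its partner. Several results are given below without these libraries. The pancreatic markers Prss2 and Cpa1 had no reads in all 48 libraries.

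Expression per unit of exon length set Lgmn apart from the other 9 genes. Cd68 encodes macrosialin, a lysosomal glycoprotein used as a general macrophage marker, and its gene lies at chr11:69555039-69556979 (mm39, minus strand, 0 overlapping genes in the deposited annotation). The lowest, median, and highest levels of Cd68 were 0.546, 0.850, and 1.66 FPKM in WT control, 0.595, 1.12, and 2.79 FPKM in WT KPC, 0.362, 0.981, and 2.06 FPKM in FoxP1SkmKO control, and 0.581, 0.831, and 1.99 FPKM in FoxP1SkmKO KPC mice (n = 12 each). Adgre1 encodes the surface antigen F4/80, with medians of 0.386, 0.461, 0.424, and 0.426 FPKM in the same order and single mice between 0.0578 and 2.10 FPKM. The 4 groups overlapped for both genes, and the highest Adgre1 value was 1 WT control mouse at CT22, with 137 reads against 23 in its partner.

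The scavenger and matrix receptors of resident macrophages were measured at similar levels. Mrc1, the mannose receptor CD206 (chr2:14234203-14336868), had medians of 0.748, 0.755, 0.783, and 0.761 FPKM in WT control, WT KPC, FoxP1SkmKO control, and FoxP1SkmKO KPC mice, with a range over all mice of 0.288 to 2.21 FPKM. Cd163, the receptor that takes up hemoglobin bound to haptoglobin (chr6:124281615-124307486), had medians of 1.09, 1.05, 0.941, and 1.12 FPKM and a range of 0.571 to 2.79 FPKM. Lyve1, a hyaluronan receptor that lymphatic endothelium also carries (chr7:110449814-110462446), had medians of 0.542, 0.599, 0.482, and 0.535 FPKM and a range of 0.183 to 1.95 FPKM. For each of these receptors the single highest value of the 48 was a WT KPC mouse at CT18.

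The signaling receptors and the enzymes spanned a wider range. Csf1r had medians of 1.24, 1.18, 0.943, and 1.14 FPKM in the same order of groups, between 0.394 and 3.68 FPKM in single mice. Fcer1g, the gamma chain shared by Fc receptors, which mast cells also use (chr1:171057141-171061934), had medians of 1.57, 2.21, 1.61, and 1.71 FPKM, between 0.278 and 4.52 FPKM. Cx3cr1, the fractalkine receptor, had 0 to 32 reads per library and medians of 0.0413, 0.0791, 0.0632, and 0.0636 FPKM. Its deposited span (chr9:119730682-119898945) holds 9 other genes, among them the muscle gene Xirp1 with a median of 2126 reads, so the assignment of its few reads is uncertain and no fold change is given for it. Csf1r also overlaps Hmgxb3, a gene on the opposite strand with a median of 440 reads, and no source used here settles whether reads were counted by strand.

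F13a1, the catalytic A subunit of coagulation factor XIII (chr13:37051152-37234220), had medians of 0.775, 0.841, 0.789, and 0.727 FPKM, between 0.384 and 2.51 FPKM. Lgmn, the lysosomal protease legumain (chr12:102360343-102406072), was the most abundant, with medians of 11.0, 10.8, 11.9, and 11.9 FPKM and single mice between 8.73 and 21.0 FPKM. By the median over all 48 libraries the order of level was Lgmn (11.5 FPKM), Fcer1g (1.65), Csf1r (1.13), Cd163 (1.04), Cd68 (0.915), F13a1 (0.777), Mrc1 (0.756), Lyve1 (0.538), Adgre1 (0.420), and Cx3cr1 (0.0560). Lgmn did not overlap any other gene of the set, since its lowest library exceeded the highest library of each of the others, whereas neighbors from Fcer1g to Adgre1 overlapped across libraries.

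**Figure D1:**
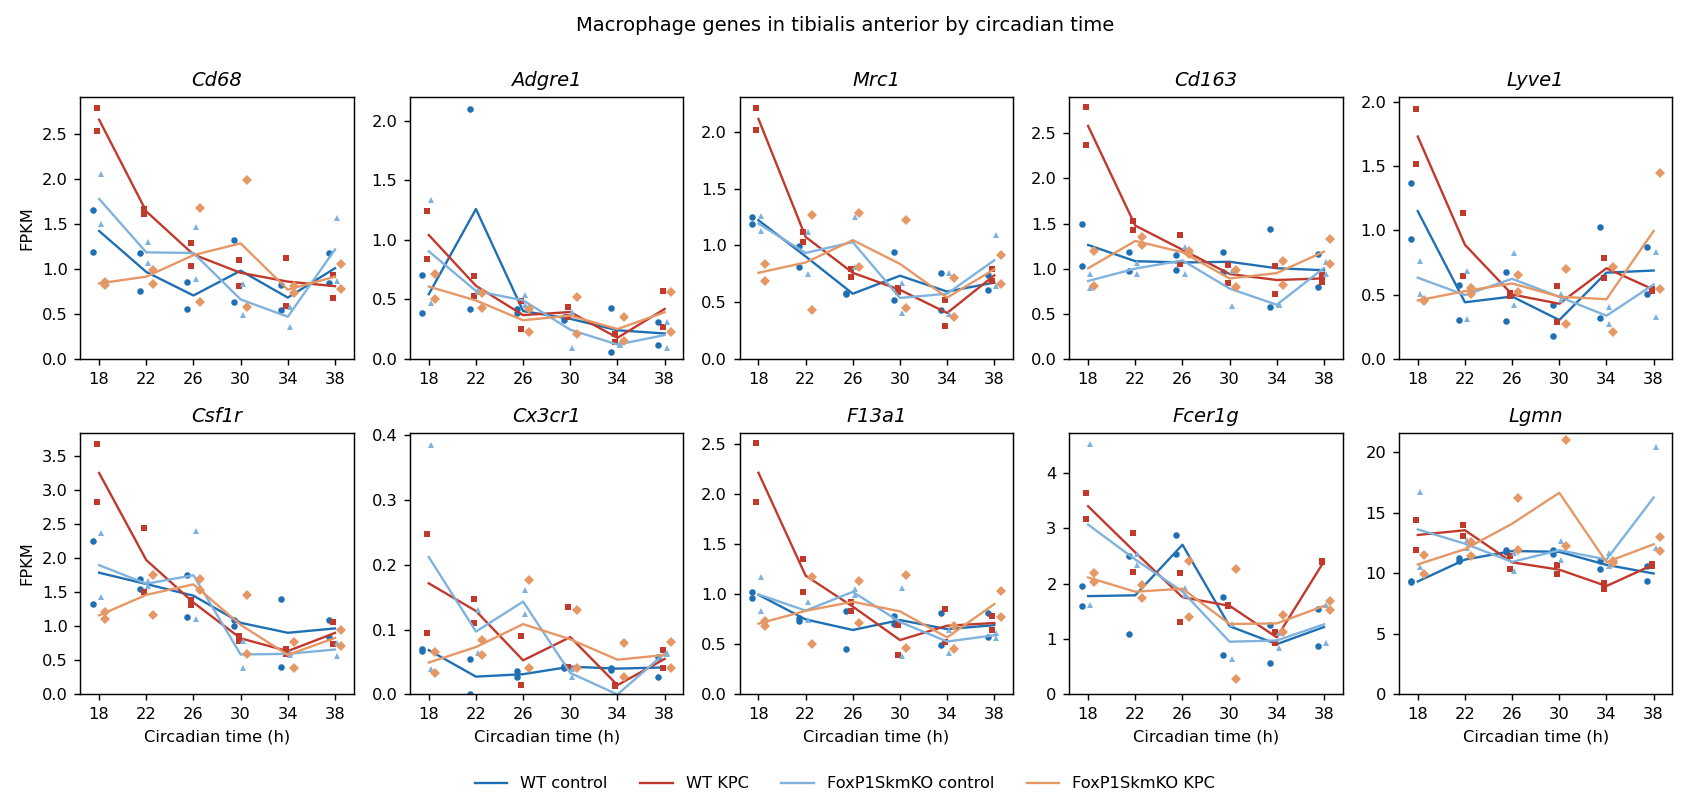
Level of each macrophage gene (FPKM) against circadian time (h), with points for single mice and lines through the mean of the 2 mice of each genotype and condition. The single highest of the WT KPC points (red squares) is at CT18 for all 10 genes, and both CT18 points are on top of that series for 8 of 10. The share of all genes with such positions was not counted.

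The average effect of the tumor over the day, the first comparison that the design allows, left no macrophage gene past the threshold. In WT mice 0 of 10 were called at an adjusted p of 0.05 in edgeR (1.79% of the 15637 genes tested were), 1 of 10 had an unadjusted p under 0.05 (15.2% of all genes did), and DESeq2 called 0 of the 9 to which it gave an adjusted p. All 10 log2 fold changes, KPC over control, were above 0, with a median of 0.24, or 0.19 without Cx3cr1, against 0.0016 over all genes. The 3 with the smallest p were Cd68 at 0.40 ± 0.19 (SE; adjusted p = 0.325), F13a1 at 0.32 ± 0.16 (adjusted p = 0.348), and Fcer1g at 0.39 ± 0.22 (adjusted p = 0.407). This common direction rested on CT18, as 6 of 10 were above 0 once CT18 was left out of the average. In FoxP1SkmKO mice 0 of 10 were called (0.428% of all genes), 1 of 10 at an unadjusted p under 0.05 (12.4% of all genes), and 0 of 10 in DESeq2. Of the 10 values 8 were above 0 with a median of 0.05, or 0.04 without Cx3cr1. Cd163 was the one with the smallest p, at 0.31 ± 0.12 (adjusted p = 0.245), while Cd68 was at -0.03 ± 0.20.

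Neither the effect of the tumor nor its dependence on genotype was resolved for single genes on average over the day. The difference of the tumor effects, WT minus FoxP1SkmKO, was called for 0 of 10 genes in edgeR and in DESeq2 (0% of all genes), and 0 of 10 had an unadjusted p under 0.05 (6.52% of all genes did). The largest was Cd68 at 0.43 ± 0.28, with a 95% interval from -0.13 to 0.99. Of the differences 7 were positive, and 3 were when CT18 was left out.

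Genotype alone was compared within each condition. In control mice 0 of 10 genes were called (3.44% of all genes), 2 of 10 had an unadjusted p under 0.05 (17.2% of all genes), and DESeq2 called 0 of 9. Lgmn was higher in FoxP1SkmKO than in WT control mice by 0.23 ± 0.08 on the log2 scale (adjusted p = 0.108), and Cd163 differed by -0.30 ± 0.12 (adjusted p = 0.151), neither past the threshold. In KPC mice 0 of 10 were called (0.32% of all genes), 1 of 10 had an unadjusted p under 0.05 (10.8% of all genes), and DESeq2 called 0 of 9. Of the 10 values 8 lay below 0, FoxP1SkmKO minus WT, with a median of -0.21, or -0.23 without Cx3cr1. Lgmn was again above 0, at 0.18 ± 0.08 (adjusted p = 0.393). The genotype comparisons use the same mice as the tumor comparisons.

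The tumor effect was then taken at each circadian time, here in fits to all 48 libraries. The study compared each time separately, and fits of that kind are given below for CT18 in WT mice. None of the 120 tests of a macrophage gene passed the adjusted threshold in the edgeR fit to 48 libraries, nor did any of the 76 to which DESeq2 gave an adjusted p on the same libraries. An unadjusted p under 0.05 was reached in edgeR by 6, 1, 0, 0, 0, and 0 of 10 genes in WT mice from CT18 to CT38 and by 2, 0, 0, 1, 2, and 1 of 10 in FoxP1SkmKO mice. Among all genes the shares at that threshold were 6.23%, 4.77%, 21.4%, 5.21%, 6.06%, and 9.82% in WT and 13.8%, 4.69%, 8.9%, 8.95%, 4.05%, and 8.05% in FoxP1SkmKO mice. The share of all genes called in WT mice was 0% at CT18, 0% at CT22, 7.17% at CT26, 0.0064% at CT30, 0% at CT34, and 0.0256% at CT38, and in FoxP1SkmKO mice 0.0192%, 0%, 0.0384%, 0%, 0%, and 0.0064%. At CT26, where 1121 genes were called in WT mice, 6 of the 10 macrophage genes lay above 0 and 0 of 10 had an unadjusted p under 0.05. At CT30 in FoxP1SkmKO mice 10 of 10 lay above 0, and 4 of 10 did without KPC replicate 2, the library with the neutrophil markers.

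CT18 was the time at which WT KPC mice had the most macrophage transcript. Cd68 was at 1.66 and 1.19 FPKM in the WT control mice and at 2.53 and 2.79 FPKM in the WT KPC mice, and at 1.50 and 2.06 FPKM in FoxP1SkmKO control and 0.824 and 0.860 FPKM in FoxP1SkmKO KPC mice. The gene was thus highest in the tumor-bearing WT pair and lowest in the tumor-bearing FoxP1SkmKO pair, with no overlap of KPC and control in either genotype. Cd163 was at 1.49 and 1.03 FPKM in WT control, 2.37 and 2.79 FPKM in WT KPC, 0.788 and 0.941 FPKM in FoxP1SkmKO control, and 0.813 and 1.20 FPKM in FoxP1SkmKO KPC mice, so that only the WT pairs were separate. F13a1 was at 0.967 and 1.03 FPKM, 1.92 and 2.51 FPKM, 0.830 and 1.17 FPKM, and 0.680 and 0.737 FPKM in the same order. Csf1r was at 2.25 and 1.33 FPKM, 2.82 and 3.68 FPKM, 1.43 and 2.37 FPKM, and 1.11 and 1.21 FPKM. Both genes followed the pattern of Cd68, with the KPC pair above control in WT and below it in FoxP1SkmKO mice.

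Mrc1 at CT18 was at 1.19 and 1.25 FPKM in WT control, 2.21 and 2.02 FPKM in WT KPC, 1.13 and 1.26 FPKM in FoxP1SkmKO control, and 0.685 and 0.833 FPKM in FoxP1SkmKO KPC mice. Lyve1 was at 0.932 and 1.37 FPKM, 1.95 and 1.51 FPKM, 0.505 and 0.759 FPKM, and 0.456 and 0.455 FPKM. These 2 receptors also separated in opposite directions. Fcer1g was at 1.95 and 1.60 FPKM, 3.16 and 3.64 FPKM, 1.62 and 4.52 FPKM, and 2.03 and 2.19 FPKM, the value of 4.52 being the FoxP1SkmKO control replicate 2 that stood apart. Lgmn was at 9.37 and 9.31 FPKM, 11.9 and 14.5 FPKM, 10.5 and 16.8 FPKM, and 9.96 and 11.5 FPKM, with the same library highest. Over the set, both WT KPC mice exceeded both WT control mice for 10 of 10 genes (18.5% of all genes tested did so), and both FoxP1SkmKO KPC mice lay below both controls for 5 of 10 (20.2% of all genes). Against FoxP1SkmKO control CT18 replicate 1 alone they lay below for 5 of 10, and for 33.1% of all genes.

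In the fit to all 48 libraries the tumor effect at CT18 in WT mice was above 0 for 10 of 10 genes. The median log2 fold change was 0.92, or 0.90 without Cx3cr1, and 6 of 10 had an unadjusted p under 0.05. Leaving out Cx3cr1, the largest were F13a1 at 1.14 ± 0.36 (adjusted p = 0.685) and Cd163 at 1.03 ± 0.26 (adjusted p = 0.578). The study's own design takes each comparison alone. Fitted to the 4 libraries of CT18 in WT mice, edgeR called Mrc1, Cd163, and F13a1 (adjusted p = 0.0466, 0.0233, and 0.0056) among 42 of 14215 genes, and DESeq2 called Cd163 and F13a1 (adjusted p = 0.0320 and 0.00298) among 29 of 11622 genes. In FoxP1SkmKO mice at CT18 the median log2 fold change was -0.54, or -0.53 without Cx3cr1, and 1 of 10 was above 0. Cd68 had -1.07 ± 0.46 (adjusted p = 0.283). Without FoxP1SkmKO control CT18 replicate 2, Cd68 was at -0.83, and 5 of 10 genes lay above 0.

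**Figure D2:**
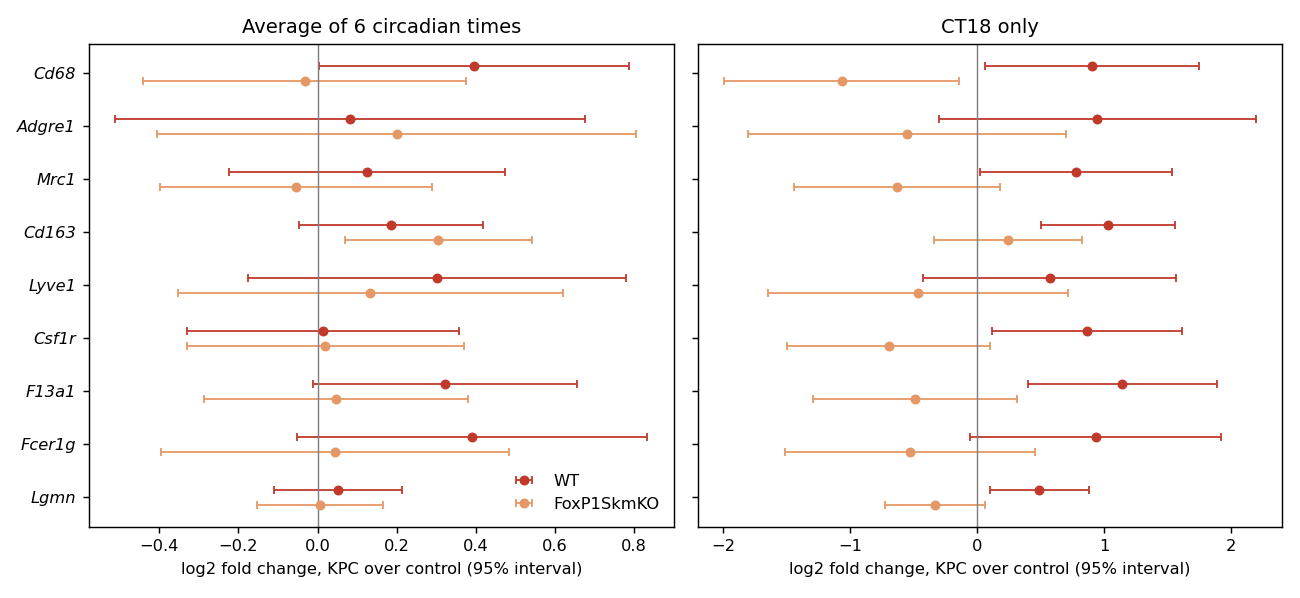
Tumor effect on the macrophage genes other than Cx3cr1 as log2 fold change, KPC over control (x axis), with 95% intervals from the edgeR fit, averaged over the 6 circadian times (left) and at CT18 alone (right). At CT18 the 9 WT points lie between 0.49 and 1.14 and 8 of the 9 FoxP1SkmKO points lie below 0, whereas the averaged effects lie between 0.01 and 0.40 in WT and between -0.05 and 0.31 in FoxP1SkmKO mice.

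The difference of the tumor effects between the genotypes was tested at each time after the values had been seen. At CT18 the difference, WT minus FoxP1SkmKO, was positive for 10 of 10 genes, and without Cx3cr1 it ranged from 0.79 to 1.97 on the log2 scale with a median of 1.46. No gene passed the adjusted threshold (0% of all genes did), with a smallest adjusted p of 0.275, and 8 of 10 had an unadjusted p under 0.05, against 10.4% of all genes. Cd68 had the largest difference, 1.97 ± 0.62 (adjusted p = 0.275), followed by F13a1 at 1.63 ± 0.54 (adjusted p = 0.302) and Csf1r at 1.57 ± 0.54 (adjusted p = 0.305). DESeq2 gave none of the 10 an adjusted p for this difference, and 7 of 10 had an unadjusted p under 0.05 (3.99% of all genes). The result depended on FoxP1SkmKO control CT18 replicate 2, without which 10 of 10 were still positive, with a median of 0.72 without Cx3cr1, and 3 of 10 had an unadjusted p under 0.05 (7.18% of all genes). Without the filter on low counts 5 of 10 passed after adjustment, as 0.825% of 33218 genes did. The same test called 0 of 10 at CT22, CT26, CT30, CT34, and CT38, where 0.0064%, 0.345%, 0%, 0.0064%, and 0% of all genes were called, with 0, 0, 1, 2, and 0 of 10 at an unadjusted p under 0.05 (5.27%, 11%, 4.96%, 4.51%, and 4.18% of all genes). The 1 at CT30 was Lgmn, at -0.69 (adjusted p = 0.970), and without FoxP1SkmKO KPC CT30 replicate 2 Lgmn was at -0.24 and the 1 gene was Fcer1g, at 2.13, neither past the adjusted threshold. At CT34 the direction was the opposite one, with 10 of 10 differences below 0.

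In WT KPC mice the level of several macrophage genes differed among circadian times. An F test of any difference among the 6 times called 6 of 10 genes, against 11% of all genes tested. These were Cd163 (adjusted p = 3.4e-04), Csf1r (5.5e-04), Mrc1 (0.00174), F13a1 (0.00274), Cd68 (0.0268), and Lyve1 (0.0465). All 10 genes had their highest WT KPC value at CT18, in 8 of 10 both CT18 mice were above the other 10 mice, and 8 of 10 had their lowest value at CT34. Such positions were not counted over all genes, here or in the other groups, so how unusual they are is not known. Csf1r fell from 2.82 and 3.68 FPKM at CT18 to 0.673 and 0.601 FPKM at CT34, and Cd163 from 2.37 and 2.79 to 1.03 and 0.722 FPKM. The calls depended on CT18, since 1 of 10 was left when CT18 was dropped from the test in this group and 0 of 10 when both WT KPC CT18 libraries were removed from the fit, and 3 of 10 without WT KPC CT18 replicate 2 alone.

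The same test was run in the other groups. In WT control mice 1 of 10 was called, Adgre1 (adjusted p = 0.0216), against 18.7% of all genes, and the highest value lay at CT18 for 7 of 10 genes. The call was lost without the CT22 library with 137 reads noted above, and also without CT26 replicate 1 or CT38 replicate 2. FoxP1SkmKO control mice gave 2 of 10, Csf1r (adjusted p = 0.00419) and Cx3cr1 (0.0336), against 6.4% of all genes, and leaving out single libraries gave 1 to 4 of 10, with 4 without CT18 replicate 1 and 1 without CT18 replicate 2. In FoxP1SkmKO KPC mice 0 of 10 were called in edgeR (5.99% of all genes) and 0 of 9 in DESeq2, 2 of 10 had an unadjusted p under 0.05 (20.9% of all genes), and the highest value lay at CT18 for 1 of 10. Taken over the mean of the 4 genotype and condition groups, a test added after the values were seen, 8 of 10 genes differed among times, against 40.6% of all genes. Csf1r had the smallest adjusted p, 5.5e-07, Lyve1 (0.0532) and Lgmn (0.212) were not called, and 5 of 10 were called without CT18. Whether the tumor effect itself differed among times was tested in each genotype, and 0 of 10 genes passed in WT (0.883% of all genes) and 0 of 10 in FoxP1SkmKO mice (0%) in edgeR, with 1 and 2 of 10 at an unadjusted p under 0.05 (12.2% and 9.76% of all genes). DESeq2 gave an adjusted p to 1 and 5 of the 10 and called none.

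Rhythms were sought by fitting a 24 h sinusoid to the FPKM of the 12 mice of each genotype and condition, with an unadjusted p under 0.01 as the study's threshold. In WT control mice 1 of 10 genes was rhythmic (4.92% of all genes), Lgmn (n = 12, p = 2.5e-04, adjusted p = 0.0464). Lgmn in WT control mice was at 9.37 and 9.31 FPKM at CT18, 11.3 and 11.0 at CT22, 11.9 and 11.8 at CT26, 11.6 and 12.0 at CT30, 11.1 and 10.4 at CT34, and 9.42 and 10.6 at CT38, an amplitude of 1.25 FPKM with a peak at CT27.9. In WT KPC mice it was at 11.9 and 14.5, 14.0 and 13.1, 10.4 and 11.5, 10.7 and 9.94, 8.73 and 9.19, and 10.8 and 10.6 FPKM at the same times, an amplitude of 2.19 FPKM with a peak at CT20.6 (n = 12, p = 7.4e-04, adjusted p = 0.0856). Both control mice with the lowest Lgmn and the KPC mouse with the highest Lgmn were thus collected at CT18.

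In WT KPC mice 4 of 10 genes were rhythmic (4.22% of all genes), namely Lgmn, Fcer1g (n = 12, p = 0.00143), Csf1r (p = 0.00698), and Mrc1 (p = 0.00872), with peaks at CT20.6, CT19.0, CT19.9, and CT19.2. Their adjusted p ranged from 0.0856 to 0.224, so 0 of 10 passed after adjustment, and 2 of 10 were left at p under 0.01 without any 1 of 7 single libraries. FoxP1SkmKO control mice had 0 of 10 (4.07% of all genes), and 2 of 10 without CT18 replicate 2, and FoxP1SkmKO KPC mice had 1 of 10, Csf1r with a peak at CT23.5 (n = 12, p = 0.00824; 2.63% of all genes). The Csf1r call was lost without any 1 of 9 of the 12 libraries. The same sinusoid fitted to the counts in edgeR gave 1, 9, 5, and 1 of 10 genes at p under 0.01 in WT control, WT KPC, FoxP1SkmKO control, and FoxP1SkmKO KPC mice, against 14.3%, 11%, 9.8%, and 8.57% of all genes, and the WT control gene was then Adgre1, not Lgmn.

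Whether the tumor changed a rhythm was tested directly over the 24 mice of a genotype. No gene of the 10 passed after adjustment in WT (0% of all genes) or in FoxP1SkmKO mice (0%), nor with the counts in edgeR. In WT mice 3 of 10 had an unadjusted p under 0.05 (5.07% of all genes), with Lgmn at 7.79e-06 (adjusted p = 0.231), Fcer1g at 0.0186, and F13a1 at 0.0362, and in FoxP1SkmKO mice 1 of 10 did, Cd68 at 0.0318 (5.09% of all genes).

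**Figure D3:**
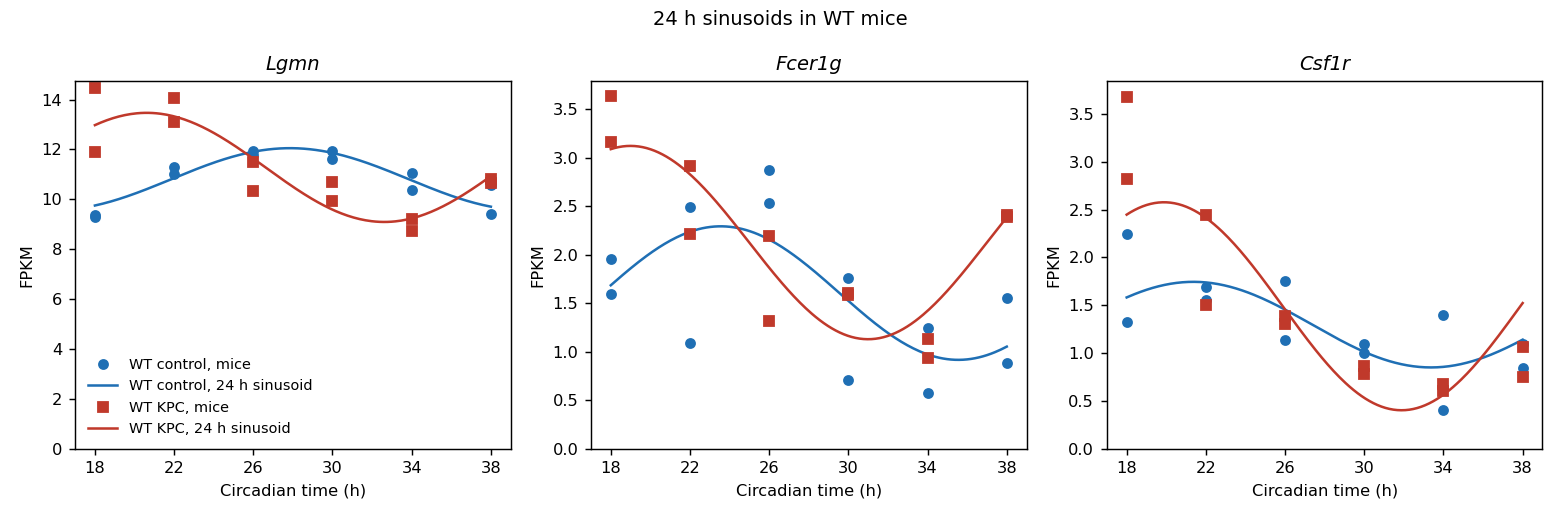
FPKM of Lgmn, Fcer1g, and Csf1r against circadian time (h) in WT mice, with points for single mice (blue control, red KPC) and the fitted 24 h sinusoids as lines. The Lgmn curve peaks at CT27.9 in control and at CT20.6 in KPC mice.

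Macrophage genes outside the 10 and markers of other cells were read from lists, with members that passed the test of time in WT KPC mice counted first. The share of all genes that passed this test was 11%. Of 19 other resident macrophage genes tested 9 passed, of 18 pan-myeloid genes 7, of 8 monocyte genes 3, of 5 mast cell markers 3, of 6 fibroblast markers 5, of 11 glucocorticoid-responsive genes 7, of 6 blood endothelial markers 2, and of 6 lymphatic endothelial markers 1, whereas 0 of 8 skeletal muscle fiber markers, 0 of 6 adipocyte markers, 0 of 5 erythroid markers, 0 of 7 inflammatory macrophage genes, 0 of 3 neutrophil markers, 0 of 4 epithelial and pancreatic markers, 0 of 3 ligands of CSF1R and CX3CR1, and 0 of 1 T, B, and NK cell markers did. The macrophage genes summed to 30.0 and 34.7 FPKM in the WT KPC mice at CT18 and to 13.7 and 15.1 FPKM at CT34. A large part of these sums is Lgmn, at 11.9 and 14.5 FPKM at CT18 and 8.73 and 9.19 FPKM at CT34. In FoxP1SkmKO KPC mice at CT18 Lgmn was at 9.96 and 11.5 FPKM. Mast cell markers moved with the macrophage genes in WT KPC mice, at 9.94 and 10.2 FPKM at CT18 and 2.11 and 3.04 FPKM at CT34. Fibroblast markers did so too, at 64.7 and 74.9 FPKM against 19.1 and 21.7 FPKM, and in FoxP1SkmKO KPC mice at CT18, where the macrophage genes summed to 17.1 and 19.8 FPKM, they were at 24.4 and 26.3 FPKM. Lymphatic endothelial markers, whose cells also carry Lyve1, were at 11.1 and 13.3 FPKM at CT18 and 4.77 and 5.80 FPKM at CT34 in WT KPC mice, and at 4.05 and 5.06 FPKM at CT18 in FoxP1SkmKO KPC mice. Neutrophil markers were at 2.35 and 2.59 FPKM at CT18 and 2.29 and 3.61 FPKM at CT34 in WT KPC mice. The part of these other cells in the time course of the macrophage genes was not tested.

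**Figure D4:**
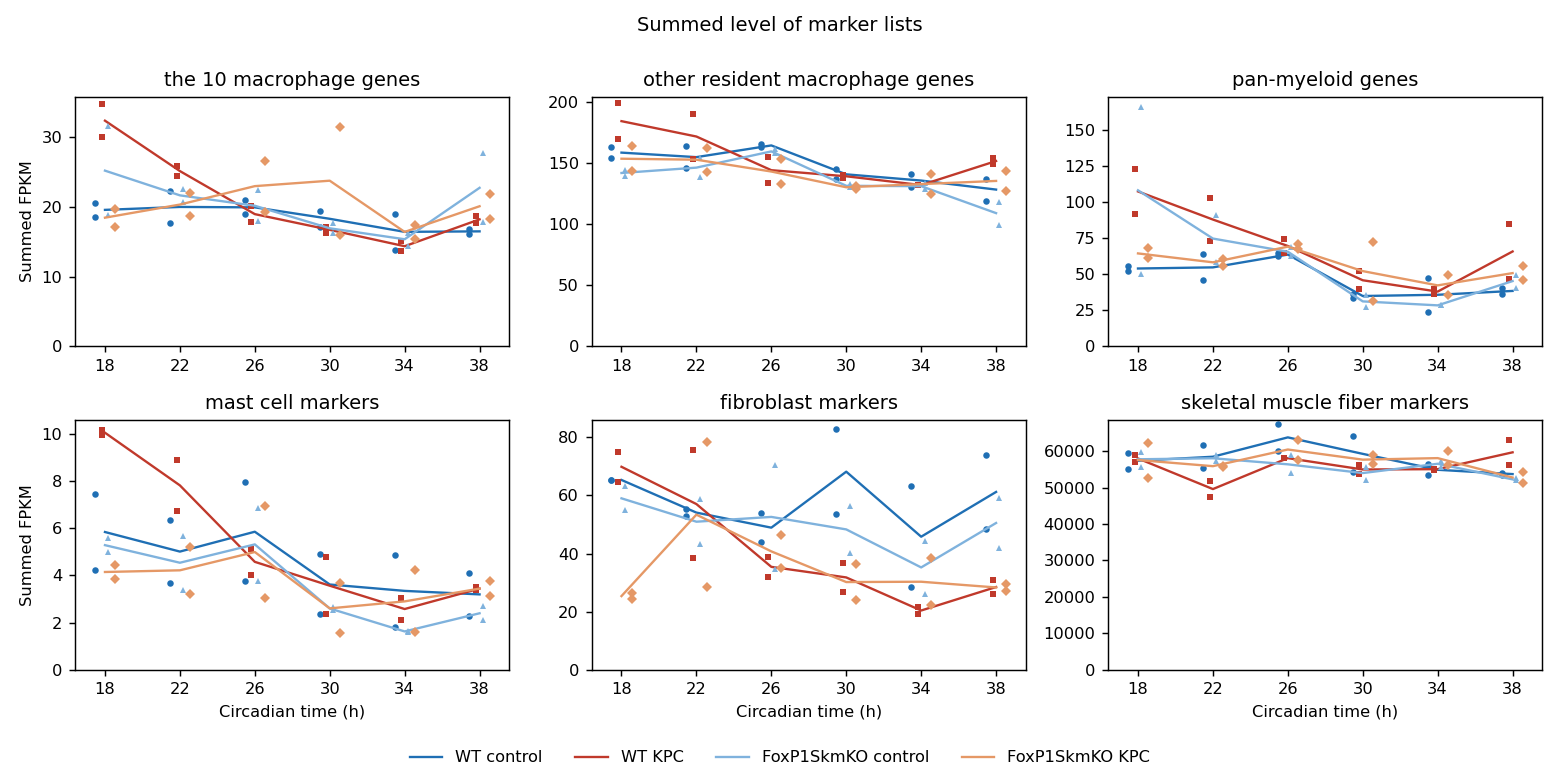
Summed FPKM of the 10 macrophage genes and of 5 marker lists against circadian time (h), with points for single mice and lines through the mean of each pair. In WT KPC mice (red) the macrophage genes, other macrophage and pan-myeloid genes, mast cell markers, and fibroblast markers are each higher at CT18 than at CT34, whereas muscle fiber markers lie between 47460 and 63110 FPKM over all WT KPC mice.

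Over the whole day, other lists held genes that passed where the 10 did not. Among all genes tested, 1.16% rose and 0.627% fell with the tumor in WT mice. In WT KPC mice 3 of 18 pan-myeloid genes rose, the leukocyte phosphatase Ptprc (log2 fold change 0.80 ± 0.22), the MHC class II gene H2-Aa (0.59 ± 0.15), and its invariant chain Cd74 (0.57 ± 0.15), with adjusted p of 0.0467, 0.0370, and 0.0383. The median of the 18 was 0.45. The neutrophil calcium-binding genes S100a8 and S100a9 rose by 2.83 ± 0.71 and 2.06 ± 0.50 on the log2 scale (adjusted p = 0.0315 and 0.0269). They had medians of only 1.5 and 3.5 reads per library. The 3 neutrophil markers tested had a median log2 fold change of 2.06 in WT and 2.31 in FoxP1SkmKO mice, where 0 of 3 passed. The FoxP1SkmKO values include KPC CT30 replicate 2, the library that stood apart in these markers. In WT mice 0 of 19 other resident macrophage genes passed, with a median of 0.01. Of the 12 genes on the inflammatory macrophage list, which also holds Retnla, Arg1, and Il10, 7 were tested and 0 passed. Tnf, Il1b, and Il6 on that list had medians of 2, 2, and 1 reads per library, too few to show whether they changed. The fibroblast collagens Col1a1 and Col3a1 fell, at -0.91 ± 0.21 and -0.71 ± 0.17 (adjusted p = 0.0188 and 0.0255). In FoxP1SkmKO KPC mice 0 of 18 pan-myeloid genes passed (0.428% of all genes), and the difference between genotypes was called for 0 of the 18 (0% of all genes). Between genotypes in control mice, 1 of the 19 other resident macrophage genes passed, where 3.44% of all genes did. It was the carbonyl reductase Cbr2, which was lower in FoxP1SkmKO mice (-0.68 ± 0.12, adjusted p = 6.7e-04).

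Between mice of the same group, many of the macrophage genes varied together. For each pair of genes, the deviations of the 2 mice from their group mean (log2 CPM, counts scaled to library size) were correlated over the 24 groups, with p-values from 100000 random sign changes and adjusted over the 45 pairs. Of 45 pairs 44 had a positive Pearson r, with a median of 0.49, and 21 had an adjusted permutation p under 0.05. The strongest pair was Mrc1 and F13a1 (r = 0.78, rho = 0.75, permutation p = 0.0001, adjusted p = 0.0015). For this pair r was 0.67 without the 2 groups whose 2 mice differed most in Mrc1. Adgre1 and Csf1r (r = 0.75) and Adgre1 and Fcer1g (r = 0.74) came next. Cx3cr1 and Cd163 had the lowest value (r = -0.08, permutation p = 0.558), and Lyve1 and Lgmn had r = 0.08. Without FoxP1SkmKO control CT18 and FoxP1SkmKO KPC CT30, the groups of the libraries that stood apart, 42 of 45 pairs were positive over 22 groups, with a median r of 0.44 (-0.23 to 0.79), and 14 had an adjusted permutation p under 0.05. The pairs share libraries and depth.

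**Figure D5:**
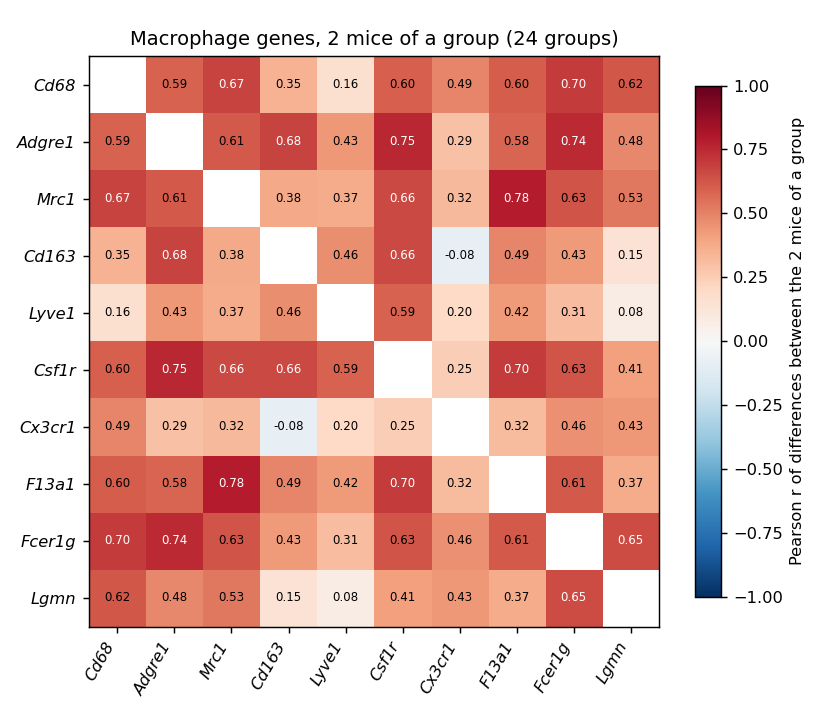
Pearson r between macrophage genes of the differences between the 2 mice of a group, over 24 groups, with the value printed in each cell and red for positive r. All pairs but Cd163 with Cx3cr1 are positive, up to 0.78 for Mrc1 with F13a1.

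Genes beyond the set were ranked by the correlation of their deviations with the mean deviation of the 10, as a description over 48 libraries. The closest of 12623 genes were Lyz2, the macrophage and neutrophil lysozyme (r = 0.88), Nckap1l, a hematopoietic actin regulator (r = 0.84), and the complement component C1qb (r = 0.82), followed by Ccl9, C1qc, Dock2, Arhgap45, Plek, C1qa, and Cotl1 (r = 0.75). The median over all genes was -0.03 and the 99th percentile 0.60. Among lists the median r was 0.63 for pan-myeloid genes, 0.58 for fibroblast markers, 0.45 for adipocyte markers, 0.43 for mast cell markers, 0.42 for monocyte genes, 0.39 for other resident macrophage genes (single genes from -0.43 to 0.82), 0.34 for lymphatic endothelial markers, 0.03 for skeletal muscle fiber markers, -0.27 for blood endothelial markers, and -0.37 for erythroid markers. The lowest genes were E2f6 (r = -0.83), Oxct1 (-0.77), and Sod2 (-0.77).

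The promoters of the pair that varied most closely, and of Lgmn, the most abundant gene, are shown as the 250 bases before an annotated start. They come from RefSeq on GRCm38.p6, a build other than the mm39 of the counts, and 7 of the 10 genes matched an entry, with 9 windows. The core GAGGAA, searched on both strands, is bound by PU.1, the main transcription factor of the macrophage lineage, and was present in 3 of the 9 windows and in 23.3% of all 32851 windows. The Mrc1 window (chr2:14229164-14229413, plus strand) held it 180, 167, and 35 bases before the start, on the minus strand as ttcctc. The F13a1 window shown (chr13:37050245-37050494, minus strand) held it 66 bases before its start. The other F13a1 window (chr13:37049214-37049463, minus strand) held 0. The third window with the core was that of Cd68, 225 bases before its start. The Lgmn window shown (chr12:102439093-102439342, minus strand) held the E-box CACGTG, the sequence that clock factors bind, 49 bases before its start. The other Lgmn window (chr12:102439729-102439978, minus strand) held 0. An E-box was in 1 of 9 windows and in 6.02% of all windows. A D-box (TTATGNAA) was in 0 of 9 and 3.07% of all windows, and a glucocorticoid response element in 0 of 9 and 0.387%. Capitals mark the PU.1 core in Mrc1 and F13a1 and the E-box in Lgmn.
Mrc1: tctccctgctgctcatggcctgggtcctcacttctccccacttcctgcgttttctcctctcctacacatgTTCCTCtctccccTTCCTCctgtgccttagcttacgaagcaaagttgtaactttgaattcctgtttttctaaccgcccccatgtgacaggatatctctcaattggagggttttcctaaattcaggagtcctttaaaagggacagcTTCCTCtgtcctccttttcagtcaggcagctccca
F13a1: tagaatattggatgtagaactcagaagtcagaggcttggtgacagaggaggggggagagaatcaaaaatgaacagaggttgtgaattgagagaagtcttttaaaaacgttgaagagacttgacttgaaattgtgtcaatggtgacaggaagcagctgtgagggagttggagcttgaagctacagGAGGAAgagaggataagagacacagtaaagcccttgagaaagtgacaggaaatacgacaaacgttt
Lgmn: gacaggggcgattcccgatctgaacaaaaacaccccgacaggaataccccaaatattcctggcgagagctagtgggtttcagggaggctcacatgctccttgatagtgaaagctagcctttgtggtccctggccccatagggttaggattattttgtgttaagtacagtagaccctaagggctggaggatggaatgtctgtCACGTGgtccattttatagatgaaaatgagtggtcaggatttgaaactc
A match of these letters is a description of the window and was not tested for binding.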

How the data were processed

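Tibialis anterior RNA from 48 male mice was sequenced after poly(A) selection, in 24 groups of genotype, condition and circadian time with 2 mice each. The deposited read counts per gene and the deposited FPKM values were made by the authors on mm39. The methods name STAR and HTSeq, whereas the submitters' processing notes name HISAT2 2.0.5 and DESeq2 1.20.0, and strand in counting is not given in the sources used here. The authors' own fold changes and p-values, deposited beside the counts, were not used. Genes absent from a count table were recovered from FPKM, exon length and library size (100% whole within 0.01 reads, at most 1 read each, 0.0035% of all reads). Totals were 14480867 to 20787784 reads per library, so genes with few reads carry large counting error.

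Counts were fitted in edgeR 4.0.16 (R 4.3.3) with quasi-likelihood tests on 24 groups, TMM scaling, and filterByExpr, which left 15637 genes, and p-values were adjusted by Benjamini-Hochberg over all of them (threshold 0.05). Groups of 2 share 1 estimate of spread. DESeq2 1.42.0 was the second tool. Rhythms were F tests of a 24 h sinusoid on FPKM (p under 0.01), and covariation used log2 CPM. Simulated data were used to check the average tumor effect in WT mice, time on the mean of 4 groups, the sinusoid tests, and covariation. Genes changed in the simulated counts had more expected reads than the medians of Cd68, Adgre1, Lyve1, Cx3cr1, and Fcer1g. Tests at single times and of differences between genotypes were not simulated. The text names the 10 genes, Foxp1, list genes called in an averaged contrast (at most 4 a list), and the genes closest to the set. The alternatives were no filter, DESeq2 size factors, DESeq2, fits to 4 libraries, log scales for rhythms, a replicate block, and each library or time left out. The 10 genes and all lists were chosen with earlier results of these data known. The series' design text gives 2 mice per group. The replicate numbers did not pair samples, since deviations of replicate 1 libraries correlated between groups at r = -0.32 to 0.23 (median -0.004).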

Additional observations from a re-analysis of the deposited data

Results flagged for a closer look

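For the macrophage genes, the tests of a difference of tumor effects between genotypes at single times and of a changed rhythm reached an unadjusted p under 0.05 in 15 cases, and none passed after adjustment over all genes. For the difference of the tumor effects at CT18, WT minus FoxP1SkmKO, edgeR gave an adjusted p of 0.275 for Cd68, 0.351 for Mrc1, 0.475 for Cd163, 0.305 for Csf1r, 0.305 for Cx3cr1, 0.302 for F13a1, 0.453 for Fcer1g, and 0.302 for Lgmn. The estimated tumor effect on these 8 genes was higher in WT than in FoxP1SkmKO mice, but no difference passed the threshold. The median difference over the genes other than Cx3cr1 was 1.46, and 0.72 without FoxP1SkmKO control CT18 replicate 2. The Cx3cr1 value rests on 3 to 32 reads per library, and the library with 32 reads was FoxP1SkmKO control CT18 replicate 2.

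The same difference at CT30 had an adjusted p of 0.97 for Lgmn, and at CT34 an adjusted p of 1 for both Cd163 and Cx3cr1, each with the opposite sign to CT18. In the test of a changed rhythm, an F test on FPKM over the 24 mice of a genotype, the adjusted p was 0.231 for Lgmn, 0.752 for Fcer1g, and 0.752 for F13a1 in WT mice and 0.757 for Cd68 in FoxP1SkmKO mice. With the counts in edgeR it was 0.50 for Lgmn in WT mice.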

How the results depend on the processing

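Alternatives for the differences at CT18 and CT30, covariation without 2 groups, leaving out a time, and the test on the mean of 4 groups were chosen after seeing the data. Without the filter on low counts the genes called rose to 1 for the average tumor effect in WT mice, 2 for genotype in control mice, 5 in WT and 2 in FoxP1SkmKO mice for a tumor effect that differs among times, 5 in WT control, 8 in FoxP1SkmKO control, and 2 in FoxP1SkmKO KPC mice for time, 7 of 120 for the tumor effect at single times, and 5 for the difference at CT18, and the cause was not tested. That fit also called more genes outside the set. For the difference at CT18 it called 274 of 33218 genes, against 0 of 15637 with the filter. Shares of all genes for the other tests of that fit are not given here, so these rises are not particular to the macrophage genes. For time, WT control gave 0 without CT22 and 0 without CT26, WT KPC 1 without CT18 and 0 without both CT18 libraries, FoxP1SkmKO control 1 without CT18 and 1 without CT34, and the mean of 4 groups 5 without CT18. Fits to 4 libraries called 3 of 120 in edgeR and 2 in DESeq2. Rhythm counts in WT KPC mice were 0 after adjustment and 9 on counts in edgeR. In FoxP1SkmKO control mice they were 1 with log2(FPKM + 1), 3 with log2(FPKM + 0.1), and 5 on counts, and in FoxP1SkmKO KPC mice 0 with log2(FPKM + 0.1), 0 after adjustment, and 0 with the replicate block. The block, whose numbers did not pair the mice, moved no other count by over 1.5 times.

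Leaving out single libraries gave 0 to 1 genes for genotype in control mice, 0 to 2 for time in WT control, 3 to 6 in WT KPC, 1 to 4 in FoxP1SkmKO control, and 0 to 1 in FoxP1SkmKO KPC mice, 7 to 9 for the mean of 4 groups, and 0 to 1 of 120 at single times. Rhythm counts ranged over 1 to 2, 2 to 4, 0 to 2, and 0 to 1 in the same order of groups. On the log2 scale the average tumor effect on Cd68 in FoxP1SkmKO mice changed sign to 0.17 without CT18, 0.035 without CT22, and 0.043 without CT38, and ranged from -0.22 to 0.069 without single libraries. Over single libraries left out, the tumor effect at CT18 in FoxP1SkmKO mice ranged from -1.11 to 0.38 for Adgre1, -1.09 to 0.39 for Fcer1g, and -0.63 to 0.035 for Lgmn, each above 0 without control replicate 2, and from -0.087 to 0.46 for Cd163, below 0 without KPC replicate 2. Each group held 2 mice, and the genes other than Lgmn had a median of 4 to 112 reads per library, which limits the precision at 1 time.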

Other observations

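Genes of other lists also passed in the averaged contrasts. Of 11 glucocorticoid-responsive genes tested in WT mice, the transcription factor gene Cebpd rose with the tumor by 0.70 ± 0.11 on the log2 scale (edgeR, adjusted p = 3.9e-04) and the clock gene Per1 by 0.61 ± 0.14 (adjusted p = 0.0159). Cebpd also rose in FoxP1SkmKO KPC mice, by 0.50 ± 0.10 (adjusted p = 0.0177). Between genotypes in control mice, Per1 was higher in FoxP1SkmKO than in WT mice by 0.75 ± 0.13 (adjusted p = 0.00123) and Dusp1, a phosphatase of MAP kinases, by 0.25 ± 0.07 (adjusted p = 0.0349).

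Endothelial genes moved in both directions. In WT KPC mice Vwf, the von Willebrand factor gene, rose by 0.36 ± 0.07 (adjusted p = 0.00242), and Kdr, a receptor for VEGF, was at -0.27 ± 0.07 (adjusted p = 0.0412). Reln, a lymphatic endothelial marker in the list, was lower with the tumor in both genotypes, at -0.62 ± 0.15 in WT (adjusted p = 0.0243) and -0.63 ± 0.15 in FoxP1SkmKO mice (adjusted p = 0.0435). Lyve1, the macrophage gene that lymphatic endothelium shares, passed in neither genotype.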
